A study of Mus musculus with 2 samples.

Results

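The 39 genes described here encode actin and the proteins that assemble, turn over, anchor and steer actin filaments in a moving T cell. They were taken by name, in 9 roles, from the 32285 genes of the deposited count matrices, and all 39 were detected in both libraries. Actin monomers join and leave filaments. Profilin and the thymosins bind the monomers, cofilin and coronin turn filaments over, and the Arp2/3 complex starts branches when WASP-type proteins switch it on. Ezrin-type linkers, talin, kindlin-3 and cross-linking proteins tie the filaments to the membrane, to integrins and to each other. T cells need this machinery to migrate through tissue, to form the contact zone with antigen-presenting cells and to divide.

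All donor mice were wild type, and aspirated house dust mite extract, an allergen, on day 0 and on days 7 to 11. Lung CD4 T cells taken from them on day 14 received Cell Trace Violet, which dims as a cell divides, and were moved into 1 of 2 kinds of host, MARCH1-/- or wild type (WT, C57BL/6). MARCH1 is a ubiquitin ligase through which antigen-presenting cells lower surface MHC class II and CD86; only the hosts differed in it. All hosts were then challenged with the extract, and the dye-low donor cells, which had divided, were sorted from the lung at day 4 after challenge. There was 1 library per host, the number of animals behind each is not stated, and every host difference below is between 2 libraries with no replicate check and no test.

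Barcodes with at least 500 unique molecular identifiers (UMIs), at least 250 genes and at most 10% mitochondrial UMIs were taken as cells. This left 156 cells with 1575581 UMIs from the MARCH1-/- host library and 352 cells with 2571048 UMIs from the WT host library, at medians of 8017 and 6087 UMIs per cell, and the 2 libraries shared no cell barcode. All 12 CD4 T cell markers were found in both. March1 had 0 UMIs in the cells of both libraries, which allows up to 1.90 CPM in cells from the MARCH1-/- host and 1.17 CPM in cells from the WT host; the donors were wild type, so this checks nothing about the hosts. Of the markers of other cells, Lyz2 and C1qa of macrophages had 1 UMI each in the MARCH1-/- host library and 0 in the WT host library, and the B cell genes Cd79a and Ms4a1 had at most 2. The macrophage, B cell and endothelial lists came to 173, 105 and 47.6 CPM in the MARCH1-/- host library and 139, 23.3 and 42.8 CPM in the WT host library, nearly all from Ccr2, Ighm and Pecam1.

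Levels are UMIs per 1e6 UMIs of the cells (CPM), with exact Poisson 95% intervals, and ratios are log2 of the MARCH1-/- host library over the WT host library with exact conditional binomial 95% intervals. Both cover counting error only, not the spread between animals, libraries or cells. In all, 6762 genes passed the minimum of 50 UMIs, and their median log2 ratio was 0.25. Ribosomal protein genes had a median of -0.32 and took 22.6% of UMIs in the MARCH1-/- host library and 27.7% in the WT host library. Values called relative have the 0.25 of this median gene subtracted.

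The upstream sequences of 3 members are shown because Actg1 and Arpc4 were the members found to hold a CArG box among the 35 searched, the site bound by serum response factor, a known regulator of actin genes, and because Vasp had the highest host ratio of all members. They are RefSeq sequences of build GRCm38.p6, 5' to 3' on the gene's strand, upstream of the RefSeq start site, with bases that GENCODE annotates as transcript left off. The box is in capitals.
Actg1, chr11:120348543-120348745, minus strand: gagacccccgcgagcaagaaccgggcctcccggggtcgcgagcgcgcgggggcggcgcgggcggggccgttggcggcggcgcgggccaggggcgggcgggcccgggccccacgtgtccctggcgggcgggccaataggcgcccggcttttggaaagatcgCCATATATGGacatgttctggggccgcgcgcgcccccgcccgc
Arpc4, chr6:113377863-113378112, plus strand: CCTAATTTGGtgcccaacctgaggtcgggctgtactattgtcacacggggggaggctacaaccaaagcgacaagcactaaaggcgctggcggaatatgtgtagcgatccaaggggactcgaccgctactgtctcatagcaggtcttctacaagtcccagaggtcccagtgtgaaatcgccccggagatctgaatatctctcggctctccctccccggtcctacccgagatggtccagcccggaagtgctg
Vasp, chr7:19271855-19272104, minus strand: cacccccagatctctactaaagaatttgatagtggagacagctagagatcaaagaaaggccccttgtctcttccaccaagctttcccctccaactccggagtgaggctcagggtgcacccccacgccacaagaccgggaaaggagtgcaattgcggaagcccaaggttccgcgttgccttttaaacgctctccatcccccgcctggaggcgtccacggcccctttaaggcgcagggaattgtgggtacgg
The CArG box was searched for on both strands in the 250 bases before each start site. It was found in 2 of the 35 members in the promoter table (5.71%), at -90 for Actg1 and at -250 for Arpc4, against 1.62% of the 27025 genes in the table. Positions count from the RefSeq start site, so that of Actg1 includes the 47 bases left off the sequence shown. Actb, Cotl1, Rac1 and Rac2 were not searched. No other motif was searched for, and a match is a run of letters, not a shown binding site.

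As a group the actin genes took 6.33% of UMIs in cells from the MARCH1-/- host and 5.53% in cells from the WT host, and without the thymosins Tmsb4x and Tmsb10 they took 3.29% and 2.28%. Of the 39 members 12 were at least 1.5-fold higher in the MARCH1-/- host library and 1, Tmsb10, was at least 1.5-fold lower. Over all genes tested 25.6% were that much higher and 8.30% that much lower, so the higher count, 12 of 39, is near the background. The median log2 ratio of the members was 0.37, or 0.12 relative to the median gene, with 22 members above that gene and 17 below. Counted relative to the median gene, 5 members were 1.5-fold higher and 3 lower, against 12.6% and 15.1% of all genes. With CPM taken without ribosomal and mitochondrial genes the counts were 8 and 2, against 19.6% and 10.2%, and at a lower limit, a log2 ratio of 0.32, they were 21 and 3, against 44.4% and 15.7%. Roles, and genes within a role, lay apart.

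**Figure D1:**
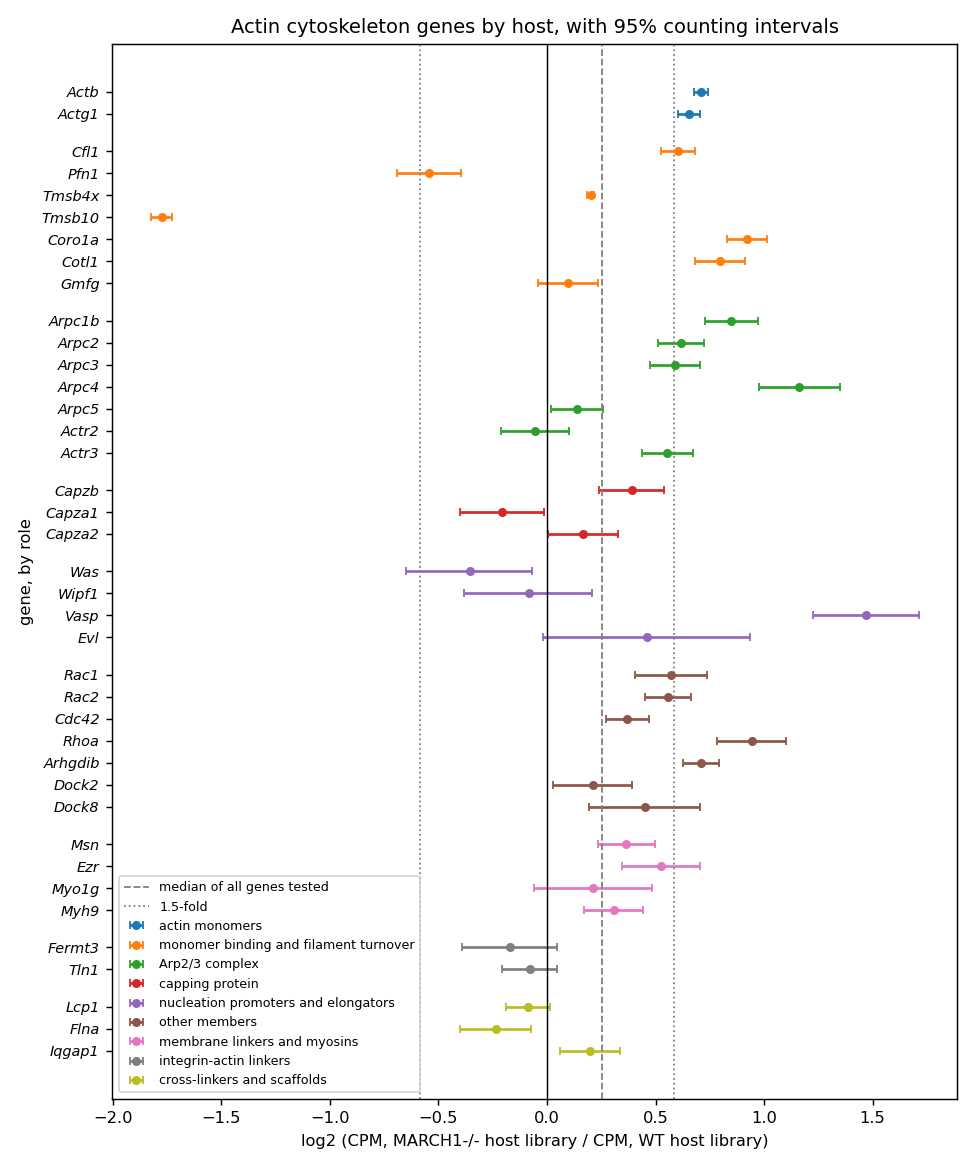
Log2 ratio of CPM in the MARCH1-/- host library over the WT host library for the 39 members (points, coloured by role) with exact 95% counting intervals, and lines at 0, at the median gene (0.25, dashed) and at 1.5-fold (dotted). Tmsb10 at -1.77 lies apart on the left and Vasp at 1.47 on the right, and the integrin linkers lie left of 0.

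Both cytoplasmic actins were higher in cells from the MARCH1-/- host. Actb (ENSMUSG00000029580, chromosome 5, 142903115 to 142906754), beta-actin, was at 10159 CPM (10002 to 10317) in the MARCH1-/- host library and 6211 CPM (6116 to 6309) in the WT host library, a log2 ratio of 0.71 (0.68 to 0.74) and higher than that of 81.8% of all genes tested. Actg1 (chromosome 11, 120345690 to 120348542), gamma-actin, was at 4146 CPM (4046 to 4248) in the MARCH1-/- host library and 2635 CPM (2573 to 2699) in the WT host library, a log2 ratio of 0.65 (0.60 to 0.70). Both stayed above the median gene, by 0.46 for Actb, and both were higher under every alternative tried, with log2 ratios no lower than 0.24 and 0.18. Per cell, 126 of the 156 cells from the MARCH1-/- host had more Actb per UMI than the median cell from the WT host, and the same number held for Actg1. Of the 31-base words in the last 300 bases of its transcripts, Actg1 shares 43.2% with the pseudogene Gm12715, which was not counted, and Actb 19.6% with Lrrc58, which had 57 UMIs in the MARCH1-/- host library and 107 in the WT host library. How many reads this sharing moved or dropped is not known, and both counts are uncertain in that respect. In all, 11 of the 39 members share over 10% of these words with another gene, and 19 overlap a counted gene.

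Among the monomer-binding and turnover genes, the beta-thymosin Tmsb10, which holds actin monomers back from filaments, was far lower in cells from the MARCH1-/- host, while its relative Tmsb4x was not. Tmsb10 (ENSMUSG00000079523, chromosome 6, minus strand, protein-coding) was at 2404 CPM (2328 to 2482; 3788 UMIs) in the MARCH1-/- host library and 8227 CPM (8116 to 8339; 21152 UMIs) in the WT host library. That is a log2 ratio of -1.77 (-1.83 to -1.72), 3.42-fold (3.31 to 3.54) lower in cells from the MARCH1-/- host. Tmsb4x was at 27947 CPM (27687 to 28209) in the MARCH1-/- host library and 24317 CPM (24126 to 24508) in the WT host library, a log2 ratio of 0.20 (0.18 to 0.22), or just under the median gene. The ratio of Tmsb4x changed sign between alternatives, from -0.11 to 0.33, and that of Tmsb10 ran from -2.04 to -1.58 and was past 1.5-fold in all 15.

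The Tmsb10 difference was in nearly every cell and every cell state. The quartiles and median per cell were 1376, 1992 and 3118 CPM in the MARCH1-/- host library, against 4262, 7332 and 11152 CPM in the WT host library. Of the 156 cells from the MARCH1-/- host 2 lay above the median cell from the WT host, and 142 lay below its lower quartile. The log2 ratio was -1.81 in cycling cells, -1.78 in non-cycling cells, -1.66 in cells with a type 2 cytokine UMI and -1.87 in those without. In barcodes under 100 UMIs, which hold free RNA and fragments, Tmsb10 was at 2661 CPM in the MARCH1-/- host library and 9976 CPM in the WT host library, a log2 ratio of -1.91 (-2.01 to -1.81). The difference was as large there as in the called cells.

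**Figure D2:**
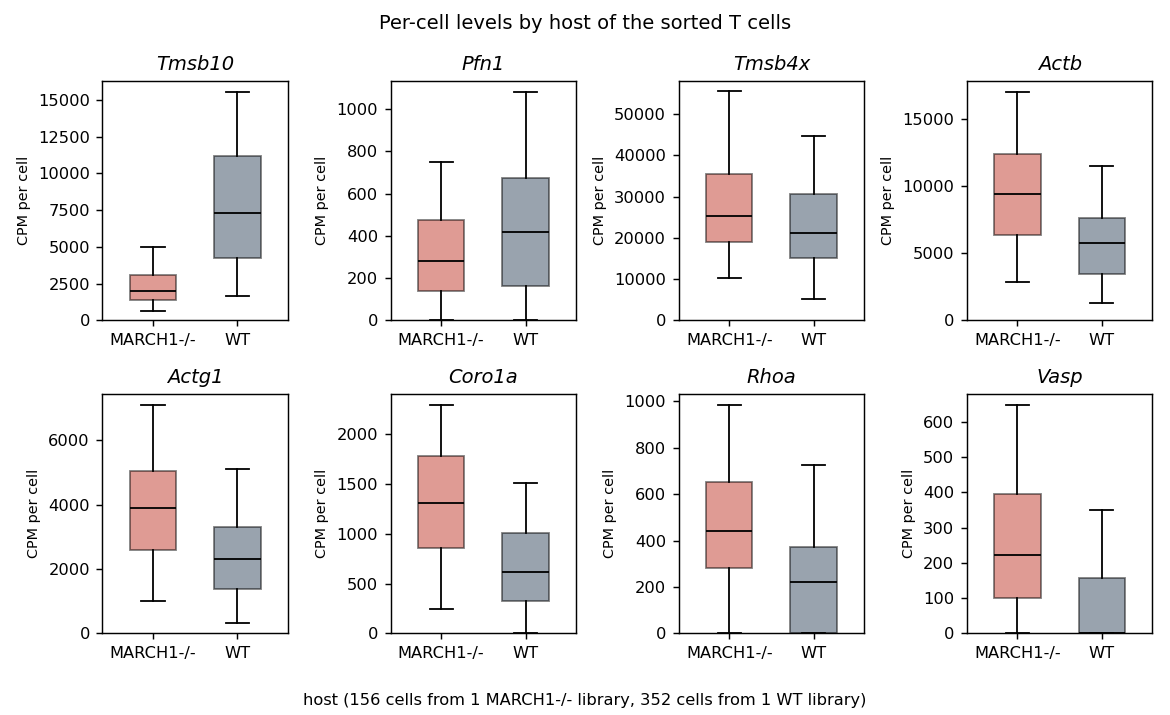
CPM per cell of 8 members in the 156 cells from the MARCH1-/- host library (left box of each panel) and the 352 cells from the WT host library (right box); boxes are quartiles with the median, whiskers the 5th and 95th percentiles, and cells are not replicates. The upper quartile of Tmsb10 in the MARCH1-/- host library (3118 CPM) lies below its lower quartile in the WT host library (4262 CPM), while the boxes of Tmsb4x overlap.

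Tmsb10 is short, and below 2000 bases the host ratio moved with transcript length over all genes. Genes whose longest coding transcript is under 500 bases had a median log2 ratio of -1.01 (n = 40), those of 500 to under 600 bases -0.56 (n = 51), those of 600 to under 700 bases -0.20 (n = 65), those of 800 to under 1000 bases 0.31 (n = 219) and those of 1000 to under 2000 bases 0.47 (n = 1457). Longer genes lay lower again, at 0.26 for 2000 to under 4000 bases (n = 2459, with 18 members) and 0.18 from 4000 bases (n = 2255, with 8 members). The coding transcripts of Tmsb10 run to 690 bases. Of the 60 genes of 600 to under 700 bases that encode no ribosomal protein, 3 had a ratio at or below that of Tmsb10. Over all genes 50 of 6762 did, and among the 276 with 2000 UMIs or more 8 did. Each of these counts includes Tmsb10 itself. The part of length in the Tmsb10 value was not tested. Of the 31-base words in its last 300 bases, Tmsb10 shares 43.5% with Gm9844, which had 21 UMIs in the MARCH1-/- host library and 25 in the WT host library. Relative to genes of the same length class, a comparison added after the data were seen, 4 members were at least 1.5-fold higher and 3 lower. On the log2 scale the higher were Vasp (1.21), Arpc4 (0.90), Rhoa (0.68) and Arpc1b (0.59). The lower were Tmsb10 (-1.58), Pfn1 (-0.85) and Was (-0.61). The share of all genes that far from their own length class was not computed. Relative to the median gene that share was 12.6% higher and 15.1% lower. The counts are thus not read as a result about the members.

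**Figure D3:**
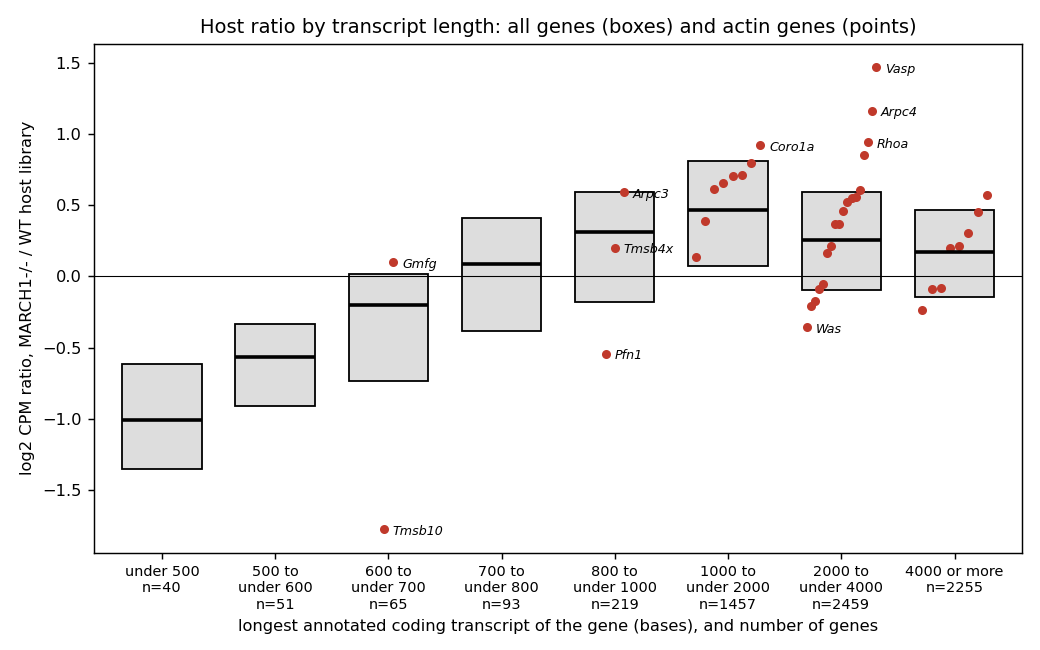
Log2 host ratio (MARCH1-/- over WT host library) by length of the longest annotated coding transcript in bases: boxes give the median and quartiles of all genes in each class, points the 39 members at their own ratio. The class medians run from -1.01 for the shortest genes to 0.47 at 1000 to under 2000 bases. They are lower again beyond, at 0.26 and 0.18. Among the members outside the boxes of their classes, Tmsb10, Pfn1 and Was lie below and Vasp, Arpc4, Rhoa and Coro1a above.

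The other monomer-binding and turnover genes went both ways. Pfn1, profilin, which feeds monomers to growing ends, was at 336 CPM (308 to 366) in the MARCH1-/- host library and 490 CPM (463 to 518) in the WT host library, a log2 ratio of -0.54 (-0.69 to -0.40); it was lower under all 15 alternatives and past 1.5-fold under 7. Its longest coding transcript has 861 bases. Coro1a, coronin 1A, a filament-binding protein of leukocytes whose loss leaves mice and people short of T cells, was at 1320 CPM (1264 to 1378) in the MARCH1-/- host library and 698 CPM (666 to 731) in the WT host library, a log2 ratio of 0.92 (0.83 to 1.01). The F-actin-binding Cotl1 was at 804 CPM in the MARCH1-/- host library and 462 CPM in the WT host library (0.80, 0.68 to 0.91), and Cfl1, cofilin, at 1632 CPM and 1074 CPM in the same order of hosts (0.60, 0.53 to 0.68). Gmfg, which removes Arp2/3 branches, was at 447 CPM in the MARCH1-/- host library and 417 CPM in the WT host library, with an interval that includes no difference (0.10, -0.04 to 0.24); it shares 64.8% of its tail words with a pseudogene that was not counted.

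The Arp2/3 complex, of 7 subunit genes here, was higher in cells from the MARCH1-/- host in 6, with 4 at least 1.5-fold higher and a median log2 ratio of 0.59; 5 of the 7 lay above the median gene. Over all genes 68.0% were above 0 and 25.6% at least 1.5-fold higher. Arpc4 was at 359 CPM (330 to 389) in the MARCH1-/- host library and 160 CPM (145 to 176) in the WT host library, a log2 ratio of 1.16 (0.98 to 1.35). Arpc1b, the form of the Arpc1 subunit that predominates in blood cells, was at 729 CPM in the MARCH1-/- host library and 405 CPM in the WT host library (0.85, 0.73 to 0.97). Arpc2 (0.62), Arpc3 (0.59) and Actr3 (0.55) followed, while Arpc5 was at 0.14 (0.02 to 0.26) and Actr2, the other actin-related subunit, at -0.05 (-0.21 to 0.10). The subunits of 1 complex thus spanned more than 1 log2 unit. Arpc5 and Actr2 changed sign between alternatives; the other 5 were higher under all 15. Arpc4 overlaps the counted gene Ttll3, and Actr3 shares 67.0% of its tail words with the pseudogene Gm8822.

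Capping protein, which stops growth at filament ends, lay on both sides of 0: Capzb was at 0.39 (0.24 to 0.54), Capza2 at 0.17 (0.01 to 0.33) and Capza1, which shares 53.0% of its tail words with other genes, at -0.21 (-0.40 to -0.01). Capzb and Capza2 changed sign between alternatives. Among nucleation promoters and elongators, Vasp and Was lay at opposite ends. Vasp, which speeds filament growth at the leading edge, was at 241 CPM (218 to 267) in the MARCH1-/- host library and 87.1 CPM (76.1 to 99.3) in the WT host library, a log2 ratio of 1.47 (1.23 to 1.71), or 2.77-fold higher. Was, the blood-cell activator of Arp2/3 that is mutated in Wiskott-Aldrich syndrome, was at 93.9 CPM (79.4 to 110) in the MARCH1-/- host library and 120 CPM (107 to 134) in the WT host library, a log2 ratio of -0.36 (-0.65 to -0.07), and its stabilizing partner Wipf1 was at -0.08 (-0.38 to 0.21). Was shares 32.6% of its tail words with counted genes, 671 in all. Evl, of the same family as Vasp, had 70 UMIs in the MARCH1-/- host library and 83 in the WT host library, too few to place it (0.46, -0.02 to 0.94).

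Rhoa, which drives contraction and stiff cortical actin, was at 450 CPM (417 to 484) in the MARCH1-/- host library and 234 CPM (216 to 254) in the WT host library, a log2 ratio of 0.94 (0.78 to 1.10). It shares 28.6% of its tail words with a pseudogene that was not counted. Arhgdib was at 1493 CPM in the MARCH1-/- host library and 914 CPM in the WT host library (0.71, 0.63 to 0.79). Rac1 (0.57), the leukocyte form Rac2 (0.56) and Cdc42 (0.37), which drive protrusion, and the exchange factors Dock8 (0.45), for Cdc42, and Dock2 (0.21), for Rac, were less than 1.5-fold higher. Dock2 changed sign between alternatives, and the others named with it did not.

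Of the membrane linkers and myosins, ezrin, Ezr, was at 0.53, or 0.27 relative to the median gene. Moesin, Msn (0.37), the non-muscle myosin heavy chain Myh9 (0.31) and Myo1g (0.21, -0.06 to 0.48) lay close to the median gene, at 0.11, 0.06 and -0.04 relative to it, and Myo1g changed sign between alternatives. The integrin linkers were below 0. Talin, Tln1, was at 515 CPM in the MARCH1-/- host library and 545 CPM in the WT host library (-0.08, -0.21 to 0.05), and kindlin-3, Fermt3, was at -0.17 (-0.39 to 0.05); both changed sign between alternatives. Of the cross-linkers, L-plastin, Lcp1, was at -0.09 (-0.19 to 0.01), filamin A, Flna, at -0.24 (-0.40 to -0.07) and the scaffold Iqgap1 at 0.20 (0.06 to 0.34). Lcp1 and Flna were below 0 under all 15 alternatives, and Iqgap1 changed sign.

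The members were compared between hosts in each cell state too. In non-cycling cells alone 12 members were at least 1.5-fold higher and 2 lower, against 24.8% and 9.74% of all genes there. Of the 39 members 29 had a log2 ratio above 0 in cycling, non-cycling, cytokine-positive and cytokine-negative cells alike, and 6 (Tmsb10, Pfn1, Was, Capza1, Lcp1 and Flna) were below 0 in all 4. Of all genes tested 44.2% were above 0 in all 4 states and 16.0% below, not matched to the members for UMIs, and 68.0% were above 0 over all cells. Vasp was at 1.37 in cycling, 1.68 in non-cycling, 1.61 in cytokine-positive and 1.35 in cytokine-negative cells. Rhoa was at 1.11, 0.84, 1.09 and 0.82 in the same order. These states share cells, and the libraries are the same, so they are no independent checks.

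From cell to cell, the actins and cofilin went together, while Tmsb10 went with cofilin and coronin more than with the actins or Tmsb4x. Spearman's correlation of CPM per cell between Actb and Actg1 was 0.62 over 156 cells from the MARCH1-/- host and 0.61 over 352 cells from the WT host, and between Actb and Cfl1 it was 0.56 and 0.59. Tmsb4x went with Actb too, at 0.47 and 0.60 in the same order of hosts. Between Tmsb10 and Tmsb4x it was 0.03 and 0.14, and between Tmsb10 and Actb 0.05 and 0.14. Between Tmsb10 and Cfl1 it was 0.32 and 0.29, between Tmsb10 and Coro1a 0.50 and 0.22, and between Tmsb10 and Arhgdib 0.40 and 0.31. Cells of a library share its preparation, and values per cell share that cell's total. Beyond counting error, Actb varied between cells by 28.9% (coefficient of variation) in the MARCH1-/- host library and 38.0% in the WT host library, and the share of all members in a cell's UMIs had a median of 6.11% and 5.32% in the same order of hosts.

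Cycling cells, with at least 0.3% of UMIs from 46 cell cycle genes, were 52 of 156 in the MARCH1-/- host library and 84 of 352 in the WT host library. They held more UMIs, at medians of 15114 in cycling and 6306 in non-cycling cells from the MARCH1-/- host, and 11384 in cycling and 5075 in non-cycling cells from the WT host. Few actin genes passed the test between cycling and non-cycling cells. EdgeR's quasi-likelihood test on the 4 sums of 2 classes and 2 libraries, with library as a block and 1 residual degree of freedom, called 1 member higher and 3 lower of 39, against 15.5% of 7336 genes higher and 11.5% lower. The median log2 fold change of the members was -0.04, against -0.02 for all genes. Scaled to total UMIs in place of TMM factors, the test called 0 members higher and 8 lower, with 11 at an unadjusted p under 0.05, against 12.9% and 14.4% of all genes. DESeq2 called 0 members, with 1 at an unadjusted p under 0.05, against 11 by edgeR, and 5.32% of all genes higher and 1.69% lower. The p-values measure only the spread between these sums.

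Actb was higher in cycling cells, at 10906 CPM in cycling and 9192 CPM in non-cycling cells from the MARCH1-/- host, and 6521 and 6009 CPM in the same classes from the WT host (edgeR log2 fold change 0.26, adjusted p = 0.034). Evl was at 33.8 CPM in cycling and 58.2 CPM in non-cycling cells from the MARCH1-/- host, and 16.7 and 42.4 CPM in those classes from the WT host (-0.96, adjusted p = 0.0069, edgeR). Dock2, the Rac exchange factor that lymphocytes need to migrate, was at 205 CPM in cycling and 361 CPM in non-cycling cells from the MARCH1-/- host, and 200 and 259 CPM in those classes from the WT host (-0.51, adjusted p = 0.015, edgeR). Vasp was at 188 CPM in cycling and 310 CPM in non-cycling cells from the MARCH1-/- host, and 72.8 and 96.5 CPM in those classes from the WT host (-0.50, adjusted p = 0.029, edgeR). Each of the 4 had the same direction in both libraries, and each lost its call with a cycling limit of 0.6%. There, no member was called by edgeR and 4 had an unadjusted p under 0.05. Of all genes, 9.54% were called higher and 4.97% lower at that limit, against 15.5% and 11.5% in the main fit. The log2 fold changes at that limit were 0.16 for Actb, -0.93 for Evl, -0.40 for Dock2 and -0.42 for Vasp. All 4 calls were also lost by DESeq2 and with no library block. Actb and Dock2 were called under 9 of 14 alternatives, Evl under 9 of 13 and Vasp under 7 of 14. The actin turnover and Arp2/3 genes, Actg1, Rhoa and Cdc42 did not pass the test.

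Cells with at least 1 UMI of Il4, Il5 or Il13, called cytokine-positive, were 57 of 156 in the MARCH1-/- host library and 137 of 352 in the WT host library. In both libraries these cells had more Tmsb4x and Cotl1 and less Tmsb10, Gmfg, Dock2 and Wipf1 than cytokine-negative cells. For Wipf1 the interval in the MARCH1-/- host library included no difference, at a log2 ratio of -0.42 (-0.92 to 0.06). In the WT host library it was at -0.69 (-1.06 to -0.32). By edgeR, 2 members were called higher and 4 lower of 39, against 3.84% of 7586 genes higher and 4.47% lower, with a median member log2 fold change of 0.003; DESeq2 called 1 higher and 1 lower, against 0.501% and 0.593% of all genes. Cytokine-positive cells were deeper, at a median of 10009 UMIs against 6430 in cytokine-negative cells from the MARCH1-/- host, and 7987 against 4828 from the WT host; the part of depth was not tested beyond the thinned values.

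Tmsb4x was at 33163 CPM in cytokine-positive and 23747 CPM in cytokine-negative cells from the MARCH1-/- host, and 26366 and 22421 CPM in those classes from the WT host (0.36, adjusted p = 5.0e-07, edgeR). Tmsb10 went the other way, at 2036 CPM in cytokine-positive and 2701 CPM in cytokine-negative cells from the MARCH1-/- host, and 6412 and 9906 CPM in those classes from the WT host (-0.52, adjusted p = 7.1e-11, edgeR). The thymosins were thus opposed between these classes within each library. Thinned to 1000 UMIs per cell, these were the calls that held, and without cells carrying at least 2 UMIs of other cell types' markers Tmsb10 was still called (-0.65) and Tmsb4x was not, at a log2 fold change of 0.34 (edgeR adjusted p = 0.078). That alternative leaves out 79 of the 156 cells from the MARCH1-/- host and 92 of the 352 cells from the WT host. Most of these marker UMIs were of Ccr2, with 261 in the MARCH1-/- host library and 352 in the WT host library. Ighm followed, with 158 and 53. The alternative is thus not read as a check of purity.

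Cotl1 was at 959 CPM in cytokine-positive and 678 CPM in cytokine-negative cells from the MARCH1-/- host, and 516 and 412 CPM in those classes from the WT host (0.42, adjusted p = 0.0012, edgeR). Gmfg was at 357 CPM in cytokine-positive and 519 CPM in cytokine-negative cells from the MARCH1-/- host, and 320 and 508 CPM in those classes from the WT host (-0.61, adjusted p = 4.3e-06, edgeR). Dock2 was at 212 CPM in cytokine-positive and 322 CPM in cytokine-negative cells from the MARCH1-/- host, and 185 and 283 CPM in those classes from the WT host (-0.61, adjusted p = 1.0e-04, edgeR). Wipf1 had the lowest level of the 6 and its call held under 7 of 14 alternatives (-0.58, adjusted p = 0.013, edgeR). These 4 were not called by edgeR after thinning to 1000 UMIs, where their log2 fold changes were 0.34 for Cotl1, -0.65 for Gmfg, -0.70 for Dock2 and -1.15 for Wipf1. After thinning 2.2% of all genes were called higher and 2.79% lower, against 3.84% and 4.47% in the main fit. Actb, Actg1, cofilin, the Arp2/3 subunits, Rhoa, Rac1, Rac2 and Cdc42 did not pass the test.

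**Figure D4:**
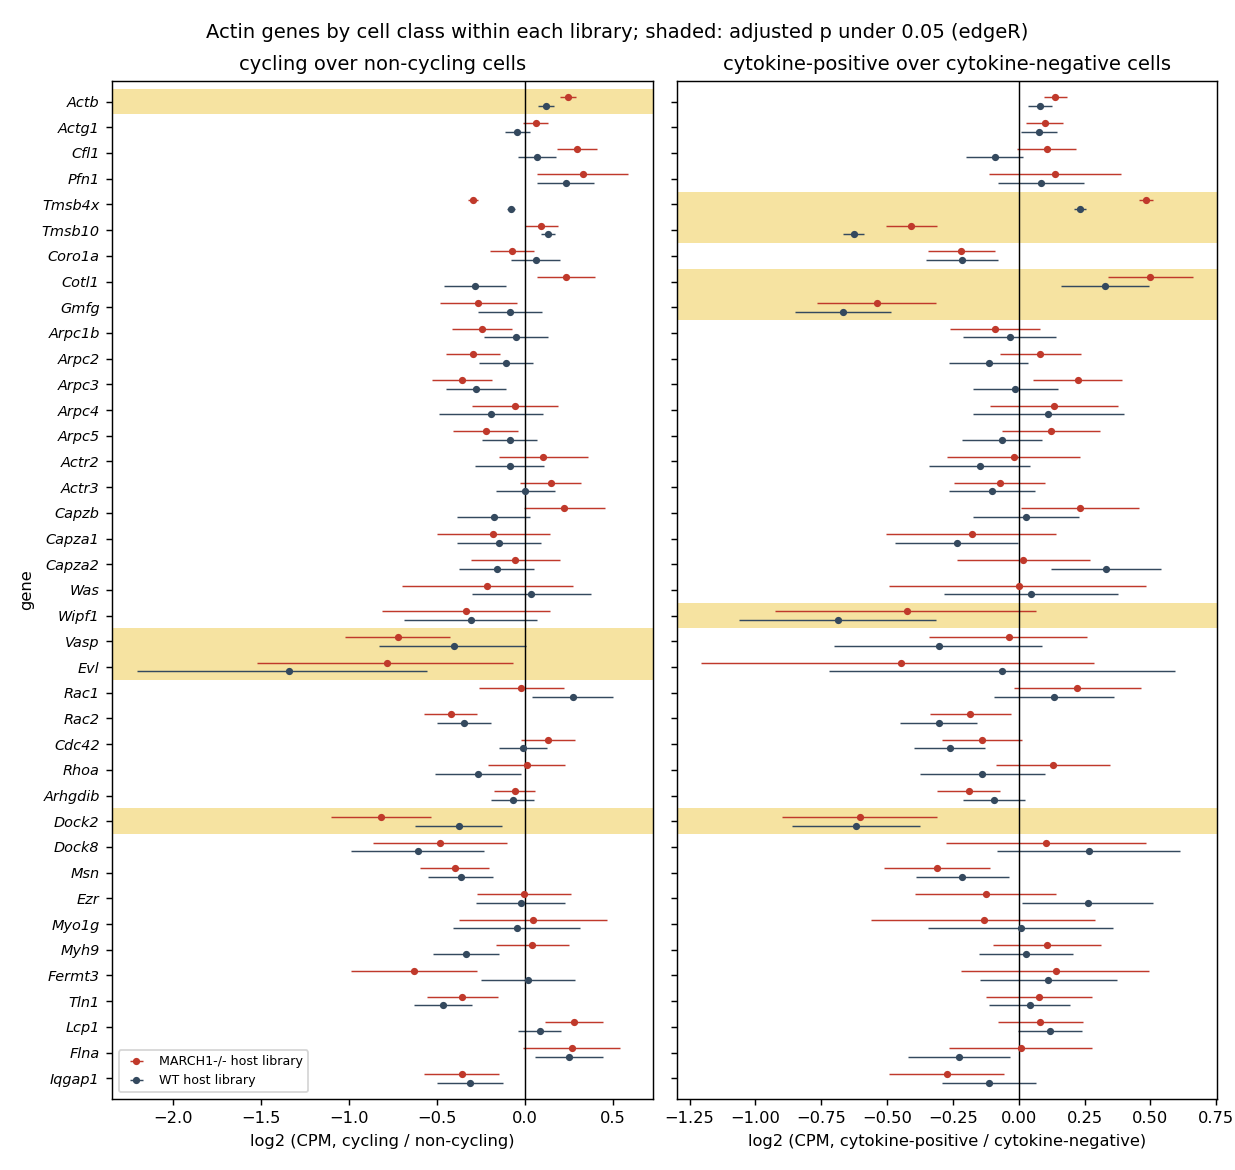
Log2 ratio of CPM in cycling over non-cycling cells (left panel) and in cytokine-positive over cytokine-negative cells (right panel) for the 39 members, in the MARCH1-/- host library (red) and the WT host library (dark), with exact 95% counting intervals; shading marks an edgeR adjusted p under 0.05. Tmsb4x and Tmsb10 lie on opposite sides of 0 in the right panel in both libraries, and Dock2 lies left of 0 in both panels.

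Of 102 other actin-related genes, from other turnover factors to tropomyosins and myosin light chains, 84 had at least 50 UMIs; 17 of these (20.2%) were 1.5-fold higher in the MARCH1-/- host library and 3 (3.57%) lower, with a median log2 ratio of 0.26, the level of the median gene. The highest were the adducin Add3 (1.19), the myosin light chain Myl12b (1.15), transgelin-2, Tagln2 (1.08), at 1557 CPM in the MARCH1-/- host library and 734 CPM in the WT host library, and Arpc1a (0.997), the alternative to Arpc1b. Among those with at least 100 UMIs the lowest were Abi1 (-0.88), of the WAVE complex, twinfilin, Twf1 (-0.67), tropomyosin, Tpm1 (-0.33), and the kinase Pak2 (-0.33). Some genes with fewer UMIs, not named here, lay lower than Tpm1 and Pak2. Between cell classes edgeR called 8 of 84 higher and 8 lower in cycling cells, led by Marcksl1 (1.42, adjusted p = 0.00094) and Ssh2 (-0.96, adjusted p = 4.8e-05). That is 9.52% each way, against 15.5% and 11.5% of all genes. In cytokine-positive cells it called 6 (7.14%) higher and 8 (9.52%) lower, against 3.84% and 4.47% of all genes, led by gelsolin, Gsn (2.24, adjusted p = 9.8e-19), and the leukocyte actin-binding protein Lsp1 (-0.998, adjusted p = 6.0e-18). Gsn was at 117 CPM in cytokine-positive and 17.2 CPM in cytokine-negative cells from the MARCH1-/- host, and 83.4 and 22.5 CPM in those classes from the WT host.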

How the data were processed

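Single-cell libraries of sorted donor CD4 T cells were analysed, 1 per host. The deposited values are whole-number UMI counts per gene and barcode, not normalized. Per the submitters' processing notes they were made with Cell Ranger 3.1.0 on mm10, while the file headers name version 4; which one made the deposited counts and the annotation used are not given in the sources used here. The labels' protocols name the 10x Next GEM 3' kit (v3.1).

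Cells were barcodes with at least 500 UMIs, 250 genes and at most 10% mitochondrial UMIs: 156 from the MARCH1-/- host and 352 from the WT host, of 1934068 and 3753437 UMIs in the libraries. Scrublet (scanpy 1.11.5, expected rate 0.05) marked 5 cells in each, which were kept; an alternative removes them. For the host comparison, UMIs were summed per library and scaled to CPM, a gene needed 50 UMIs, and 1.5-fold was the limit used for naming a difference; with 1 library per host there is no test. Classes of cells were tested with edgeR 4.0.16 (TMM, filterByExpr, library as block, Benjamini-Hochberg adjusted p under 0.05), with DESeq2 1.42.0 as an alternative. On simulated counts with known changes the edgeR fit recovered 100% of 2-fold and 36% of 1.5-fold increases for cycling (7345 genes). For cytokine-positive cells (7621 genes) it recovered 96% and 26%. Of decreases of the same size it recovered 80% and 18% for cycling and 78% and 28% for cytokine-positive cells. The simulation gave every gene the same fixed dispersion, and 50 genes per fold were changed, all among those with more UMIs. No other gene differed between classes. These rates need not hold for the real tests or for members with few UMIs. Near the cycling limit lay 5 cells between 0.2% and the limit and 3 up to 0.45% in the MARCH1-/- host library, and 17 and 16 in the WT host library. At limits of 0.15% and 0.6%, 59 and 43 cells were cycling in the MARCH1-/- host library and 118 and 58 in the WT host library.

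Positions and transcript lengths are from GENCODE M21 and start sites from RefSeq (GRCm38.p6). All 39 members are named; of the other actin genes, the 4 at each end of the host ratio with at least 100 UMIs and those with the smallest adjusted p in each direction between classes. The summary of 1 group of members is not reported here. Members and gene lists were chosen with earlier results of these data known. Sums and intervals were made in Python 3.11.15 with pandas 2.3.3 (numpy 2.4.6) and scipy 1.17.1, and plots in matplotlib 3.10.9. Alternatives are given under the dependence on processing.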

Additional observations from a re-analysis of the deposited data

Results flagged for a closer look

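Cotl1, a filament-binding protein, went opposite ways with cycling in the 2 libraries. Its log2 ratio of cycling over non-cycling cells was 0.23 (0.07 to 0.40) in the MARCH1-/- host library and -0.28 (-0.46 to -0.11) in the WT host library, with both counting intervals clear of 0. It was at 860 CPM in cycling and 731 CPM in non-cycling cells from the MARCH1-/- host, and at 408 and 497 CPM in those classes from the WT host. No other of the 39 members had both intervals clear of 0 on opposite sides in the cycling or the cytokine comparison. These intervals do not cover the spread between cells. Beyond counting error Cotl1 varied between cells by 61.6% (coefficient of variation) in the MARCH1-/- host library and 52.4% in the WT host library. In the MARCH1-/- host library 1 cell held 61 of its 1266 UMIs. Whether the opposite directions go beyond that spread was not tested, and with 1 library per host neither was the difference between hosts.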

How the results depend on the processing

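With 1 library per host, no host value has a replicate check, and the class tests rest on 1 residual degree of freedom. No paired analysis by replicate number was possible because each host has 1 library; the class fits keep the library as a block. Genes under about 100 CPM, such as Evl, Was and Wipf1, are limited by depth.

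Between hosts 12 members were 1.5-fold higher and 1 lower, at a median of 0.37, against 25.6% and 8.3% of all genes. Relative to the median gene the counts were 5 and 3 (median 0.12), against 12.6% and 15.1%. With TMM they were 4 and 3 (0.10), against 817 and 1071 of 6762 genes. Relative to genes of the same length they were 4 and 3 (0.13), with no share of all genes computed. At a lower limit (a log2 ratio of 0.32) they were 21 and 3, against 44.4% and 15.7%. The lower count was 2 with a mitochondrial limit of 5%, against 536 of 6662 genes. It was 2 without cells carrying other markers, against 464 of 5555 genes, and 2 thinned to 1000 UMIs, against 234 of 1494. Without ribosomal and mitochondrial genes and in non-cycling cells it was also 2, against 10.2% and 9.74%. The higher count was 8 without cells carrying other markers, against 1443 of 5555 genes. That alternative leaves out 79 of 156 and 92 of 352 cells. Thinned, 14 of the 38 members tested were higher, against 357 of 1494 genes. No host value past 1.5-fold changed sign.

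For cycling (1 higher, 3 lower, median -0.040) the counts were 0 and 0 by DESeq2, with the 0.6% limit (median -0.11) and with no library block (-0.014), where 1 member, 4 members and 1 member had an unadjusted p under 0.05. Over all genes DESeq2 called 5.32% higher and 1.69% lower. EdgeR called 9.54% and 4.97% at the 0.6% limit, and 4.5% and 0.559% with no library block. Higher counts were 4 at the 0.15% limit (median -0.018, 15.3% of all genes) and 5 in cytokine-negative cells (0.043, the other sign, 15.5%). At the 5% mitochondrial limit 0 were higher (15.5%), and without doublets 2 were (-0.0052, 15.3%). With total UMIs 0 were higher (12.9%) and 8 lower (-0.13, 14.4%). No member was called lower after thinning (-0.078, against 8.81% of all genes) or without cells carrying other markers (8.28%). Without either library the median was between -0.086 and -0.059. The cause of these shifts was not tested.

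For cytokine-positive cells (2 higher, 4 lower, median 0.0030) the counts were 1 and 1 by DESeq2, thinned (median -0.074, the other sign) and with positives called after thinning (0.075). Over all genes DESeq2 called 0.501% higher and 0.593% lower. EdgeR called 2.2% and 2.79% thinned, and 1.05% and 1.08% with positives called after thinning, against 3.84% and 4.47% in the main fit. Member counts were 0 and 2 without cells carrying other markers (-0.055, the other sign), against 1.65% and 1.51% of all genes. With no library block the member counts were 0 and 0, and no gene of the 7586 was called either way. There, 0 members and 387 genes had an unadjusted p under 0.05 by edgeR. Leaving out a library in turn gave medians between -0.062, the other sign, and 0.0072. The cause was not tested. No call of a single member changed sign.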

Other observations

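In barcodes under 100 UMIs the members took 5.60% of UMIs in the MARCH1-/- host library and 5.57% in the WT host library. There, 33 of 39 members were lower than in cells of the same library in the MARCH1-/- host library, and 30 in the WT host library, against 70.7% and 65.8% of all genes tested. Iqgap1 was at 282 CPM in these barcodes and 465 CPM in cells of the MARCH1-/- host library, and at 213 and 405 CPM in the WT host library. Tmsb10 was higher there than in cells in both libraries, by 0.15 (0.04 to 0.25) on the log2 scale in the MARCH1-/- host library and by 0.28 (0.24 to 0.31) in the WT host library.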
